A study of Mus musculus with 6 samples.

Results

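Ribosome assembly factors are the proteins that transcribe, modify, cleave, fold and export the RNA and protein of new ribosomes without remaining in the finished particle. The 43 genes described here were taken by symbol from a list of RNA polymerase I subunits, nucleolar proteins, small nucleolar ribonucleoprotein (snoRNP) proteins, subunit assembly factors, Rps2 chaperones and ribonuclease P subunits. All 43 were found among the 22924 features with sense tags, and all 43 were among the 11375 genes tested. Polyadenylated RNA from Atxn2-KO mice, homozygous for loss of Atxn2, was compared with RNA from wild-type (WT) mice in cerebellum, hippocampus and liver. All 6 libraries came from C57BL/6 mice aged 6 months, and each library pooled RNA of 3 animals, so each genotype has 1 library in each tissue. The protocol text of the labels names midbrain and ages in weeks, and the tissue and age of the sample labels were followed. MACE (massive analysis of cDNA ends) reads 1 fragment close to the poly(A) tail of each cDNA, so a count is a number of transcript ends and does not grow with transcript length. In whole tissue, fewer cells of a type and less RNA per cell cannot be told apart.

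In the nucleolus, RNA polymerase I copies the ribosomal DNA into a long precursor, which box C/D and box H/ACA snoRNPs modify while the small-subunit processome folds and cleaves it. Later factors mature the small and large subunits separately and accompany them to the cytoplasm. Neurons and hepatocytes both keep a prominent nucleolus in adult life, although neither divides often. Ataxin-2 binds RNA, poly(A)-binding protein and polyribosomes, and the study asked which transcripts change in the same way in several tissues of the knockout.

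Gene tags numbered 1774523 to 2727523 per library, of which 1942 to 6478 belonged to the 43 genes. Atxn2 itself had 0, 1 and 2 tags in KO cerebellum, hippocampus and liver, against 167, 194 and 115 tags in WT. Markers of cerebellar neurons, hippocampal neurons and hepatocytes were each highest in the tissue of their label. Some marker lists differed between genotypes in each tissue: the 4 oligodendrocyte markers summed to 59.5 to 2876 CPM (gene tags per 1e6 after TMM scaling) in KO and 98.9 to 4034 CPM in WT libraries, lower in KO in every tissue. The 3 red blood cell markers summed to 104 to 556 CPM in KO and 55.7 to 297 CPM in WT, higher in KO in every tissue. In brain, 5 hepatocyte markers other than Ttr reached 0.179% and 0.157% of their liver level in KO cerebellum and hippocampus, against 0.347% and 0.944% in WT. Xist had 0 tags in the 3 KO libraries and 34 to 87 in WT, while Y-linked transcripts were present in every library, so the sex of the pooled animals and genotype cannot be told apart. The part of these differences in the results below was not tested.

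The assembly genes covered a wide range of levels. Their median was 24.8, 23.5 and 33.5 CPM in KO cerebellum, hippocampus and liver, against 23.1, 22.9 and 27.2 CPM in WT. Rrp1, a large-subunit assembly factor, was the most abundant in both brain tissues, at 356 and 398 CPM in KO and 355 and 419 CPM in WT cerebellum and hippocampus. In liver, Nop10, a small core protein of H/ACA snoRNPs, led in KO with 282 CPM, and Npm1, the nucleolar chaperone nucleophosmin, led in WT with 234 CPM. Rrp9, a protein of the U3 snoRNP, was among the least abundant, with 2.79, 3.64 and 3.24 CPM in KO and 4.80, 5.36 and 2.59 CPM in WT. Together the 43 genes made up 0.274%, 0.277% and 0.109% of gene tags in KO cerebellum, hippocampus and liver, against 0.264%, 0.265% and 0.117% in WT. These shares are of unscaled tags. After TMM scaling their summed level was 1940, 2142 and 2100 CPM in KO and 1868, 2028 and 2061 CPM in WT, and the liver levels lay close to those of brain.

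**Figure D1:**
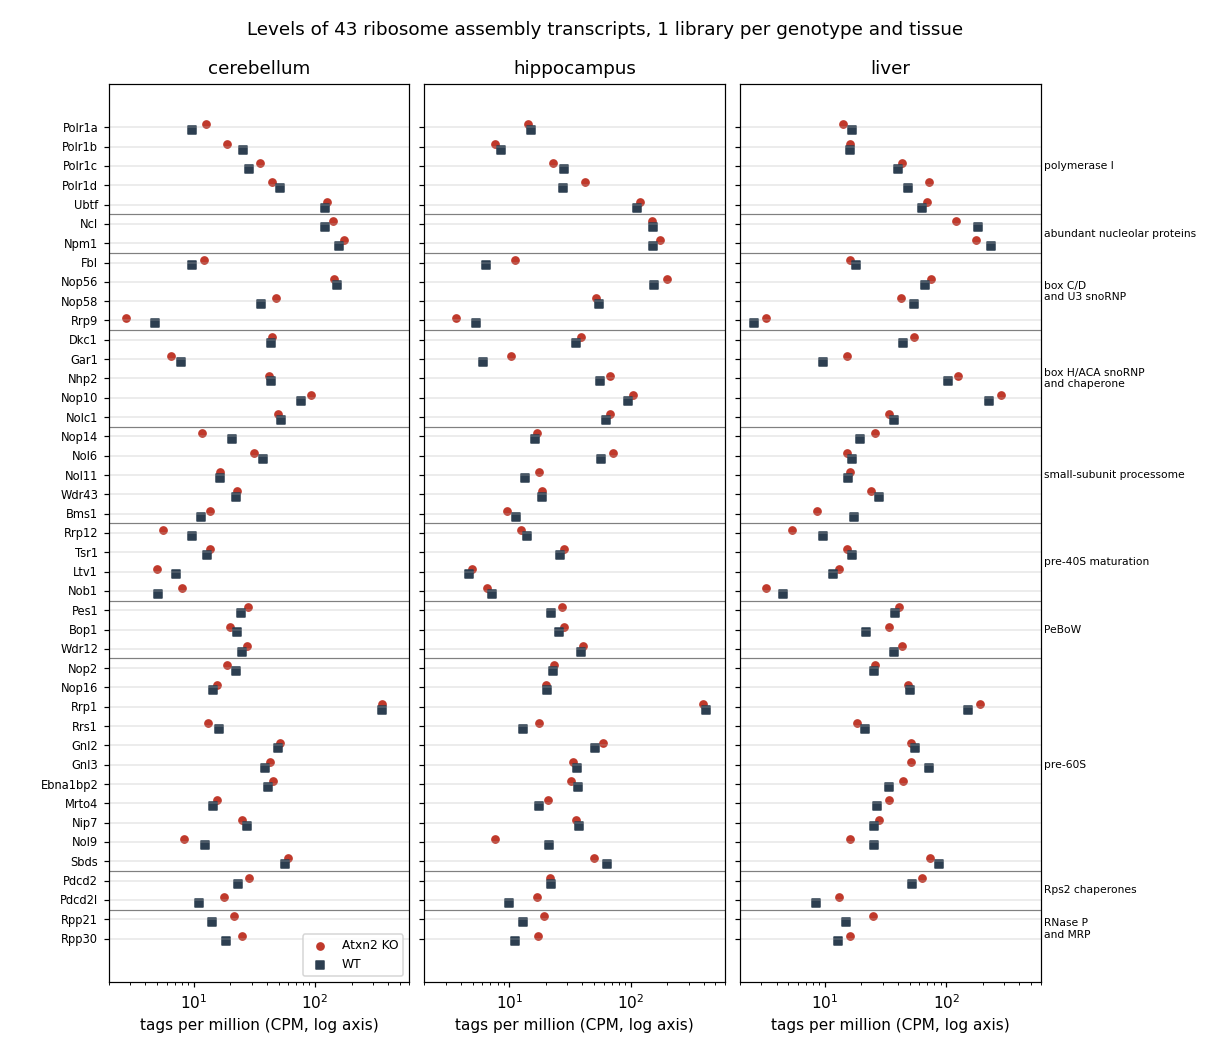
Levels of the 43 assembly transcripts in CPM (log axis), with 1 point per library: KO circles above WT squares, grouped by role. Rrp1 lies between 355 and 419 CPM in the 4 brain libraries, and Rrp9 lies at 5.36 CPM or below in all 6 libraries.

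Loss of Atxn2 was set against wild type across the 3 tissues to see whether assembly transcripts change together. None of the 43 passed the test in either direction (edgeR quasi-likelihood test with tissue as a block, Benjamini-Hochberg adjustment over 11375 genes, threshold 0.05), where 0.00879% of all genes were called higher and 0.0879% lower. DESeq2 also called 0 members. At an unadjusted p under 0.05 edgeR gave 3 higher members, Pdcd2l, Rpp21 and Rpp30, and 1 lower member, Nol9, beside 1.95% and 2.92% of all genes. The median fitted log2 change of the 43 was 0.06, beside -0.00 for all genes, and 27 of 43 lay above 0, beside 49.3% of all genes. A second list of 104 ribosome assembly genes that holds none of the 43 had a median of 0.06 over its 96 tested genes, 60 of them above 0, with 0 called. The 77 cytosolic ribosomal protein genes, the structural parts of the ribosome, had a median of 0.20 with 75 above 0 and 0 called. The difference between these lists was not tested. The sample titles give the same animal numbers in each tissue of a genotype, so the 3 libraries of a genotype appear to share their 3 animals. These p-values thus measure agreement between tissues, not the spread between animals.

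Pdcd2l, a chaperone of the small-subunit protein Rps2, had the highest fitted change of the 43. It had 57, 51 and 12 tags in KO cerebellum, hippocampus and liver, against 37, 28 and 13 tags in WT, or 17.7, 16.9 and 13.0 CPM in KO against 11.1, 10.0 and 8.40 CPM in WT. The 3 KO levels all lay above the 3 WT levels. The fitted log2 change was 0.69 with a standard error (SE) of 0.24, and it did not pass the threshold (adjusted p = 0.914). Its paralog Pdcd2, also a chaperone of Rps2, had 28.8, 21.5 and 62.7 CPM in KO and 23.1, 22.1 and 52.4 CPM in WT, so that its KO level was above WT in cerebellum and liver and slightly below it in hippocampus. The fitted change of Pdcd2 was 0.19 (SE 0.18, adjusted p = 0.998), and 0.08 without the cerebellum pair.

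The ribonuclease P subunits had the next highest changes. Ribonuclease P trims the leader from tRNA precursors, and Rpp30 also serves ribonuclease MRP, which cleaves the ribosomal RNA precursor. Rpp21 had 70, 59 and 23 tags in KO cerebellum, hippocampus and liver, against 47, 36 and 23 in WT, which scale to 21.7, 19.5 and 24.9 CPM in KO and 14.1, 12.9 and 14.9 CPM in WT. Rpp30 had 24.8, 17.2 and 16.2 CPM in KO and 18.6, 11.1 and 12.9 CPM in WT. Rpp21 was higher in every KO library than in any WT library, while the Rpp30 levels of the genotypes overlapped across tissues. Pdcd2l and Rpp21 were picked for their fitted change, which favours such a separation of libraries. The share of all genes separated in this way was not counted. The fitted log2 change was 0.64 for Rpp21 (SE 0.22, adjusted p = 0.898) and 0.47 for Rpp30 (SE 0.22, adjusted p = 0.998).

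Nol9, a polynucleotide kinase that acts on the precursor of large-subunit RNA, had the lowest fitted change. It had 27, 23 and 15 tags in KO cerebellum, hippocampus and liver and 41, 59 and 39 tags in WT. In CPM these are 8.36, 7.61 and 16.2 in KO and 12.3, 21.1 and 25.2 in WT, with the widest gap in hippocampus. The hippocampal log2 ratio was -1.47 (exact 95% counting interval -2.23 to -0.75), and those of cerebellum and liver were -0.56 and -0.64 with intervals that include 0. The fitted change was -0.92 (SE 0.26, adjusted p = 0.654), and -0.60 without the hippocampus pair.

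In single tissues, where 1 library per genotype allows no test, members were counted when the absolute log2 ratio was at least 0.5, the mean CPM at least 10 and the counting interval excluded equality. In cerebellum Pdcd2l and Rpp21 were counted as higher and Nop14 as lower among 38 members at that level, where the rule counted 2.09% of all genes higher and 2.84% lower. In hippocampus Pdcd2l and Polr1d were counted as higher and Nol9 as lower among 37 members, beside 5.35% and 4.67%. In liver Polr1d was counted as higher and Ncl as lower among 40 members, beside 5.32% and 7.52%. Each count holds 1 or 2 members. Ratios above 0 were found for 25 of 38 members in cerebellum (48.3% of all genes), 22 of 37 in hippocampus (51.6%) and 24 of 40 in liver (48.6%). The liver counts depend on the scaling: Polr1d had 0.46 with library totals and Ncl -0.50 with DESeq2 size factors, both short of the size limit. The median half-width of a member's counting interval was 0.48, 0.50 and 0.75 on the log2 scale in cerebellum, hippocampus and liver. For many members, smaller differences could thus not be told from 0 at this depth. Abundant members had narrower intervals, such as 0.03 to 0.42 for Ncl in cerebellum, around a log2 ratio of 0.23.

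Among polymerase I genes, Polr1d, a subunit that RNA polymerases I and III share, was counted as higher in hippocampus and liver. It had 44.6, 42.0 and 72.5 CPM in KO cerebellum, hippocampus and liver, against 51.0, 27.5 and 48.5 CPM in WT, with log2 ratios of -0.19, 0.61 and 0.58. The cerebellar interval, -0.52 to 0.14, includes 0, and the difference between tissues was not tested. Polr1b, the second-largest subunit, had 18.9, 7.61 and 16.2 CPM in KO and 25.5, 8.57 and 16.2 CPM in WT. Its log2 ratios were -0.43, -0.17 and 0.01, each with a counting interval that includes 0. The hippocampal ratio rests on 23 KO and 24 WT tags, a level under the 10 CPM limit. Ubtf, the factor that loads polymerase I onto ribosomal DNA, had nearly equal levels in both genotypes, with a fitted change of 0.08 (SE 0.14, adjusted p = 0.998).

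Tags of Polr1d fell on 2 RefSeq transcript records, which can be counted apart. The more frequent record took 105 of the tags and the other 38 in KO cerebellum, a share of 73.4% (exact 95% interval 65.4 to 80.5), against 68.8% (61.3 to 75.7) in WT cerebellum. Its share was 66.7% (57.7 to 74.8) in KO hippocampus and 59.7% (47.9 to 70.8) in WT hippocampus. It was 53.7% (41.1 to 66.0) in KO liver and 58.7% (46.7 to 69.9) in WT liver. The intervals of the genotypes overlapped in each tissue, and both liver shares lay below both cerebellar shares.

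**Figure D2:**
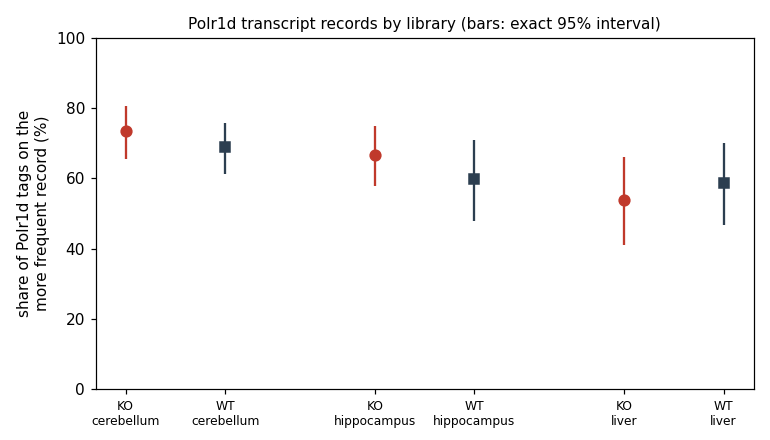
Share of Polr1d tags on the more frequent of its 2 transcript records, in percent, with 1 point per library, KO left of WT, and exact 95% counting intervals as bars. The shares run from 73.4% in KO cerebellum to 53.7% in KO liver, and the KO and WT intervals overlap in every tissue.

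The abundant nucleolar proteins Ncl and Npm1 had lower KO to WT ratios in liver than in brain, a difference that was not tested. Ncl, nucleolin, which binds precursor RNA and nucleolar chromatin, had 142, 150 and 120 CPM in KO cerebellum, hippocampus and liver and 121, 153 and 182 CPM in WT. Npm1 had 174, 175 and 176 CPM in KO and 156, 153 and 234 CPM in WT. Both were lower in KO liver, with log2 ratios of -0.60 for Ncl and -0.41 for Npm1 and intervals below 0, while their brain ratios lay between -0.03 and 0.23. Of the 2564 Npm1 tags, 2224 lay in records that name Npm1 alone, and the rest were shared with predicted near-copies.

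Among snoRNP proteins, Fbl, the methyltransferase fibrillarin, and Gar1, an H/ACA core protein, had fitted changes of 0.35 (SE 0.27) and 0.34 (SE 0.31), both with an adjusted p of 0.998. Without the hippocampus pair they were 0.12 for Fbl and 0.09 for Gar1. Fbl had 12.1, 11.2 and 16.2 CPM in KO and 9.59, 6.43 and 18.1 CPM in WT, and all of its 166 tags lay in a record shared with a predicted near-copy, so its level is uncertain. Gar1 had 6.50, 10.2 and 15.1 CPM in KO and 7.79, 6.07 and 9.70 CPM in WT. Both were higher in KO hippocampus, but Fbl was lower in KO liver and Gar1 lower in KO cerebellum. Rrp9, at the levels given above, was lower in KO in both brain tissues only, with a fitted change of -0.53 (SE 0.41, adjusted p = 0.998). The counting intervals of Fbl, Gar1 and Rrp9 include 0 in every tissue. The H/ACA group with its chaperone Nolc1 had 4 of 5 fitted changes above 0 and a median of 0.16, and the box C/D and U3 group had 3 of 4 and a median of 0.08. Dkc1, the pseudouridine synthase dyskerin, is the X-linked member of the H/ACA group and had a fitted change of 0.13 (SE 0.16). Of the 812 tags in rows that name Dkc1, 621 (76.5%) entered its count, and the rest lay in rows shared with other genes.

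The processome factors and the later small-subunit factors each had a median fitted change of -0.04, with 2 of 5 and 2 of 4 above 0. Nop14, a processome protein, had 11.8, 16.9 and 26.0 CPM in KO cerebellum, hippocampus and liver and 20.7, 16.4 and 19.4 CPM in WT, with log2 ratios of -0.81, 0.04 and 0.42. The counting interval lay below 0 in cerebellum and included 0 in hippocampus and liver, and the difference between tissues was not tested. Bms1, a GTPase of the processome, had 13.6, 9.59 and 8.65 CPM in KO and 11.4, 11.4 and 17.5 CPM in WT. Rrp12, which takes part in export of the small subunit, had 5.58, 12.6 and 5.41 CPM in KO and 9.59, 13.9 and 9.70 CPM in WT, lower in KO in all 3 tissues. The counting intervals of Bms1 and Rrp12 include 0 in every tissue. The fitted changes were -0.20 for Nop14 (SE 0.24), -0.18 for Bms1 (SE 0.27) and -0.47 for Rrp12 (SE 0.29), each with an adjusted p of 0.998. Without the hippocampus pair that of Rrp12 was -0.81. The 31 members outside the 6 highest and 6 lowest had fitted changes between -0.15 for Sbds, which helps to release the factor eIF6 from the large subunit, and 0.25 for Nop10.

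Over the 36 members with a mean of 10 CPM or more in every tissue, 9 had a KO to WT ratio above 0 in all 3 tissues, whatever its size: Ubtf, Dkc1, Nop10, Pes1, Wdr12, Mrto4, Pdcd2l, Rpp21 and Rpp30. Among all genes at that level the share was 13.3%. None of these passed the genotype test, and the smallest ratio was 0.03 for Dkc1, 0.05 for Ubtf and 0.06 for Wdr12, all with intervals that include 0. Nol9 was the 1 member with a ratio below 0 in all 3, beside 13.6% of all genes. Pes1 and Wdr12 belong with Bop1 to the PeBoW complex of large-subunit maturation, and their partner Bop1 had a log2 ratio of -0.20 in cerebellum, 0.15 in hippocampus and 0.61 in liver. In the other list of assembly genes, 13 of 60 had ratios above 0 and 2 of 60 below 0 in all 3 tissues. Of the ribosomal protein genes, 55 of 77 had ratios above 0 and 0 had ratios below 0 in all 3.

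**Figure D3:**
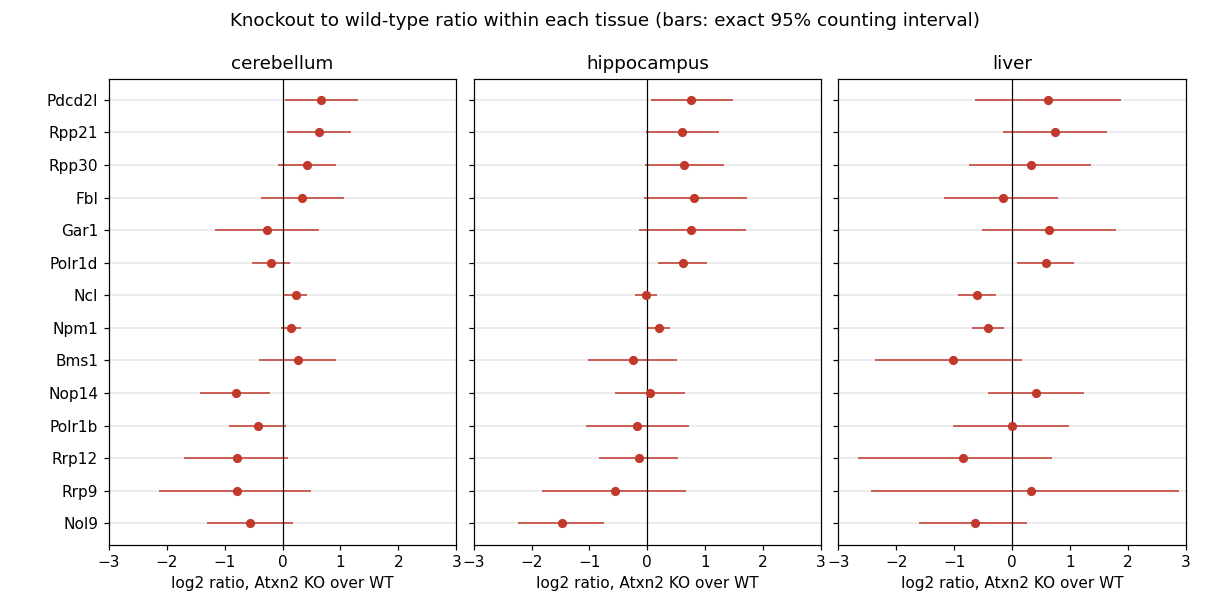
Log2 ratio of KO over WT within each tissue for the 6 members with the highest and the 6 with the lowest fitted change, and for Ncl and Npm1, with exact 95% counting intervals as bars and 1 library per genotype. The ratios of Pdcd2l, Rpp21 and Rpp30 lie above 0 and that of Nol9 below 0 in the 3 tissues. That of Rrp12 also lies below 0 in each, and the other 9 lie on both sides of 0. Of these 5 members, the intervals exclude 0 only for Pdcd2l in cerebellum and hippocampus, Rpp21 in cerebellum and Nol9 in hippocampus.

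Promoter windows from RefSeq on GRCm38.p6, running from 250 bases before to 50 after the annotated start, were matched for 33 of the 43 members. Printed are those of the members with the highest and the lowest fitted genotype change, Pdcd2l and Nol9, and of the members with the highest and the lowest value in cerebellum against hippocampus, Polr1b and Tsr1. Capitals mark matches to CACGTG (the E-box read by Myc-family factors), TCGCGA (a palindrome seen in some CpG-rich promoters) and CCGGAAG (a core read by ETS-family factors).
Pdcd2l (chr7:34196621-34196920, minus strand): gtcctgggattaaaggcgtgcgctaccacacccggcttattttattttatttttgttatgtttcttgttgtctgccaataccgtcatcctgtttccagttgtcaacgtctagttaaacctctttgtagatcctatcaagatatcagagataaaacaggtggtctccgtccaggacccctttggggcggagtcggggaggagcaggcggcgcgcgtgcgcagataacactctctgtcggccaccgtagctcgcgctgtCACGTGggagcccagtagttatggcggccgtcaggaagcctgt
Nol9 (chr4:152039071-152039370, plus strand, the upstream of 2 annotated windows): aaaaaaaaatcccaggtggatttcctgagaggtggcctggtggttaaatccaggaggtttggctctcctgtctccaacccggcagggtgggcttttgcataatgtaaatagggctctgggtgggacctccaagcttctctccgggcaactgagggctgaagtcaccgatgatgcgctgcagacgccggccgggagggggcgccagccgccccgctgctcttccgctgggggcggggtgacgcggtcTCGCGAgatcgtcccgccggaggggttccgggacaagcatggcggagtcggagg
Polr1b (chr2:129100746-129101045, plus strand): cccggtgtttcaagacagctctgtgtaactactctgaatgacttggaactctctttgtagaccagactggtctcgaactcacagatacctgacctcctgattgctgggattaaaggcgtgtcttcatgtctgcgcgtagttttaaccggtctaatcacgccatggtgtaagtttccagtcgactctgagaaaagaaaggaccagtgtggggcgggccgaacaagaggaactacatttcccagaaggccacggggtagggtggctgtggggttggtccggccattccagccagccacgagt
Tsr1 (chr11:74897830-74898129, plus strand): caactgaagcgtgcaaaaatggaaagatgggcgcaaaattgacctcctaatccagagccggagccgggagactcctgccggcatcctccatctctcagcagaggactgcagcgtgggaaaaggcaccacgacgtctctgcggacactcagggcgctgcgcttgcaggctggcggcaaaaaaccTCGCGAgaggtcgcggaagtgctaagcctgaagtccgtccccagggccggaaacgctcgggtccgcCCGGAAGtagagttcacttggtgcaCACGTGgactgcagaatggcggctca
Both strands were searched, and none of these motifs contains another. CACGTG was found in 7 of the 33 members with a window (21.2%), against 8.09% of all genes with one, in Ltv1, Nol11, Nop2, Pdcd2l, Pes1, Tsr1 and Wdr43. CCGGAAG was found in 10 of 33 (30.3%), against 9.93% of all genes. TCGCGA was found in 5 of 33 (15.2%), against 2.86% of all genes, in Nol9, Nop14, Nop58, Polr1c and Tsr1. The Polr1b window held none of the searched motifs. The members' windows had a median GC content of 58.3%, against 52.8% for all genes, and its part in these shares was not tested. A match describes letters in a window and not binding.

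More members passed the test between tissues than between genotypes. Between liver and the mean of the 2 brain tissues, 13 members were higher and 5 lower in liver (same edgeR fit, adjusted p under 0.05), where 33.6% of all genes were called higher and 37.6% lower. Here the p-values measure agreement between the genotypes, which served as repeats of each tissue. The scaling decides the zero point of this comparison: with library totals in place of TMM, the median of all genes moves by -1.30 and the members called become 0 higher and 34 lower. Relative to the median of all genes, the members' median was 0.40 higher on the log2 scale, and 31 of 43 members lay above that median. A change of scaling moves members and all genes together and so leaves this distance as it is. The filter by genotype can keep a gene seen in the brain libraries alone, but not one seen in the liver libraries alone. The part of this filter in the median of all genes and in the shares called was not tested. With a filter of 10 total counts alone, 9 members were higher and 5 lower in liver. The other assembly genes had a median of 0.22 with 32 of 96 higher and 15 lower in liver under TMM, and the ribosomal protein genes had 1.02 with 71 of 77 higher and 0 lower.

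Fitted differences of the members spanned -1.54 to 1.51 in this contrast. Calls were made for 13 members higher and 5 lower, where 33.6% of all genes were called higher and 37.6% lower. The spread of the members was not set against that of all genes. Nop16, a large-subunit assembly factor, was highest in liver, with 48.7 CPM in KO and 50.4 CPM in WT liver, against 15.5 and 14.4 CPM in KO and WT cerebellum and 20.2 and 20.4 CPM in KO and WT hippocampus. Its fitted log2 difference was 1.51 (SE 0.20). Nol6, a processome protein, had 15.1 CPM in KO and 16.8 CPM in WT liver, against 31.6 and 37.2 CPM in KO and WT cerebellum and 71.1 and 57.5 CPM in KO and WT hippocampus, a fitted difference of -1.54 (SE 0.24). Under TMM, liver and brain libraries did not overlap for either gene. Both were chosen as the extremes of the members in this contrast, which favours such a separation, and the share of all genes so separated was not counted. With library totals the fitted difference of Nop16 was 0.20 and no longer passed, and that of Nol6 was -2.84. The gap between the pair, 3.05, does not depend on the scaling.

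Among the snoRNP proteins under TMM, the 2 higher calls of the H/ACA group were core proteins, and its 1 lower call was the chaperone Nolc1. The 4 box C/D and U3 members gave 1 higher and 1 lower call. Nop10 had 282 CPM in KO and 224 CPM in WT liver, against 92.6 and 76.1 CPM in KO and WT cerebellum and 104 and 94.3 CPM in KO and WT hippocampus. Nhp2, which binds the H/ACA RNA with Nop10, had 124 CPM in KO and 104 CPM in WT liver, against 41.5 to 67.8 CPM in the 4 brain libraries. Nop56, a core protein of box C/D snoRNPs, went the other way, with 74.6 CPM in KO and 66.6 CPM in WT liver, against 142 and 153 CPM in KO and WT cerebellum and 198 and 156 CPM in KO and WT hippocampus. The fitted differences were 1.46 for Nop10 (SE 0.14), 1.15 for Nhp2 (SE 0.16) and -1.20 for Nop56 (SE 0.17), so that Nop10 exceeded Nop56 by 2.66. The other calls were Nolc1, lower in liver (-0.71), and Fbl, higher (0.86). The Fbl call rests on a record shared with a predicted near-copy, and it was lost with the DESeq2 test and with library totals. Gar1 (0.66), Dkc1 (0.27), Rrp9 (-0.59) and Nop58, the partner of Nop56 (0.06), did not pass the threshold.

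Of the Rps2 chaperones, Pdcd2 was higher in liver under TMM with a fitted difference of 1.27 (SE 0.19), at 62.7 CPM in KO and 52.4 CPM in WT liver and 21.5 to 28.8 CPM in the brain libraries. Pdcd2l had -0.37 (SE 0.32, adjusted p = 0.312). Ltv1, a late small-subunit factor, had 13.0 CPM in KO and 11.6 CPM in WT liver and 4.64 to 7.19 CPM in brain, a difference of 1.15 (SE 0.37, adjusted p = 0.009). Rrp1 had 191 CPM in KO and 152 CPM in WT liver, below every brain library, with a difference of -1.16 (SE 0.17). Ubtf had 69.2 CPM in KO and 63.4 CPM in WT liver, against 114 to 125 CPM in brain, with a difference of -0.85 (SE 0.16). The other members called were Mrto4, Nol9, Gnl3, Pes1, Polr1c, Polr1d and Sbds, higher in liver by 0.48 to 0.83. In all, 10 calls remained with each of the 6 libraries left out in turn, those of Mrto4, Nhp2, Nol6, Nolc1, Nop10, Nop16, Nop56, Pdcd2, Rrp1 and Ubtf. The other 8 were lost with 1 or more of the libraries left out, and each of the 6 libraries accounted for 3 to 6 of such losses.

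**Figure D4:**
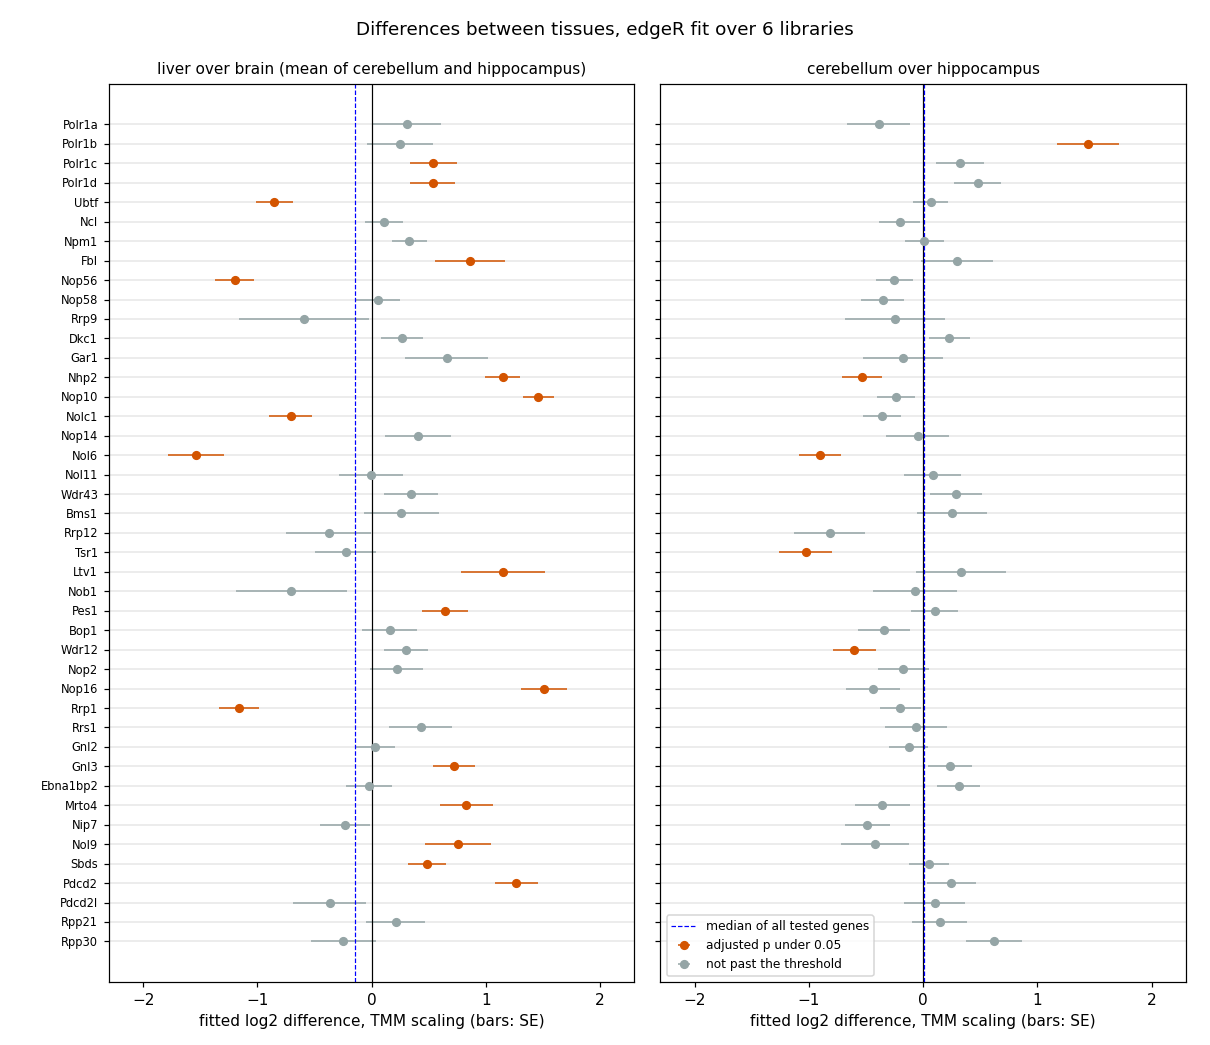
Fitted log2 differences for liver over brain and for cerebellum over hippocampus, with SE as bars, members grouped by role, TMM scaling, and the median of all tested genes as a dashed line. The liver differences span -1.54 for Nol6 to 1.51 for Nop16, and the zero point of that panel moves by -1.30 with library totals.

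Between cerebellum and hippocampus, 1 member was higher and 4 were lower in cerebellum (same fit), where 13.3% of all genes were called higher and 15.1% lower. Polr1b was higher in cerebellum, at 18.9 CPM in KO and 25.5 CPM in WT, against 7.61 CPM in KO and 8.57 CPM in WT hippocampus, a log2 difference of 1.44 (SE 0.27, adjusted p = 0.0004). Polr1b also had 114 antisense tags beside its 233 sense tags over the 6 libraries, which were counted apart. Tsr1, a late small-subunit factor, had 13.6 CPM in KO and 12.9 CPM in WT cerebellum, against 28.1 CPM in KO and 26.1 CPM in WT hippocampus, a difference of -1.03 (SE 0.23, adjusted p = 0.002). Nol6, at the levels given above, had -0.90 (SE 0.19, adjusted p = 0.001).

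Wdr12 and Nhp2 passed by less. Wdr12 had 27.6 CPM in KO and 24.9 CPM in WT cerebellum, against 40.7 CPM in KO and 38.9 CPM in WT hippocampus, a difference of -0.60 (SE 0.19, adjusted p = 0.024), and Nhp2 had -0.53 (SE 0.18, adjusted p = 0.029). Rrp12, with -0.82 (SE 0.31), Rpp30, with 0.62 (SE 0.24), Polr1d, with 0.48 (SE 0.21), and Ltv1, with 0.33 (SE 0.39), did not pass. The calls of Nhp2 and Wdr12 were lost without any 1 of the 4 brain libraries. That of Tsr1 was lost without KO or without WT cerebellum, that of Nol6 without KO cerebellum or without KO hippocampus, and that of Polr1b without WT cerebellum. The members' median difference was -0.07, beside 0.01 for all genes, and library totals move the median of all genes by 0.12. Under library totals the calls of Polr1b, Tsr1 and Nol6 remained and those of Nhp2 and Wdr12 did not.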

How the data were processed

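The 6 MACE libraries were used together, with 1 pool of 3 mice for each genotype and tissue. Per the file headers, the deposited table holds the authors' raw, unscaled counts of tags for each RefSeq record in both orientations. Per the submitters' processing notes, CASAVA 1.8.2 and mm9 were used, although the table names a GRCm38 set; no aligner is given in the sources used here. Sense counts were summed per symbol, and a row of several records went to its named gene where the others were predicted genes or pseudogenes. Rows that name no gene (23.8% to 30.1% of all tags) and antisense tags (7.75% to 10.5%) stayed out of library sizes and tests.

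Counts were fitted with edgeR 4.0.16 (quasi-likelihood, TMM, filterByExpr by genotype, tissue and genotype as terms) on 11375 genes, with Benjamini-Hochberg adjustment, and checked on simulated data. Alternatives were DESeq2 1.42.0, DESeq2 size factors, library totals, other filters and limits, no tissue block, 1-symbol rows, each library or tissue left out and, chosen after seeing the data, every row that names a member. Ratios within a tissue carry exact Clopper-Pearson 95% intervals, which cover counting error only. Named members were those with the highest and lowest 6 genotype changes, the 4 highest and lowest of each tissue contrast, the 5 most abundant, those counted within a tissue, and the role pairs. The members and lists were chosen with earlier results of these data known.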

Additional observations from a re-analysis of the deposited data

Results flagged for a closer look

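Ncl differed in direction between tissues: its log2 ratio of KO over WT was above 0 in cerebellum with an interval that excludes 0 and below 0 in liver, a difference of 0.83 between the ratios. Npm1 had the same pattern between hippocampus and liver under TMM, with a difference of 0.61. Its hippocampal interval started only just above 0, at 0.011. DESeq2 size factors and library totals each lower the hippocampal ratios by more than that, so the interval would then include 0. Each ratio rests on 1 library per genotype, and neither difference was tested.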

How the results depend on the processing

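No member was called for genotype under any alternative run. Calls over all genes for genotype, 1 higher and 10 lower, became 0 and 5 with DESeq2 size factors, 14 and 44 with a filter of 10 total counts alone, 0 and 2 with DESeq2, 0 and 0 without the tissue block, and 5 to 21 and 17 to 89 with a tissue left out. For liver against brain, library totals gave 1504 genes higher and 7989 lower, with 0 and 34 members, and DESeq2 gave 7 members higher. With 1 library left out, members higher ranged from 7 to 11. For cerebellum against hippocampus, DESeq2 gave 652 genes higher and 916 lower, with 2 members lower, and library totals gave 3 members higher and 2 lower. With 1 library left out, genes higher ranged from 620 to 2264 and genes lower from 904 to 2556, members higher from 0 to 3 and lower from 0 to 6. A tissue left with 1 library was assumed to vary like the others.

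Within tissues, counts of members higher and lower became 0 and 0 (cerebellum) and 1 and 0 (hippocampus) at a mean CPM of at least 30. At a log2 limit of 0.25, 4 were higher in cerebellum, 4 higher and 2 lower in hippocampus, and 3 higher and 2 lower in liver. At a limit of 1, 0 and 0 were counted in cerebellum and liver, and 0 higher in hippocampus. In liver, library totals gave 0 higher and 3 lower, and DESeq2 size factors 0 lower. The members' median log2 ratio in cerebellum, 0.086, was 0.068 with library totals and 0.056 at a CPM minimum of 1 or of 30. In hippocampus, 0.080 became 0.037 with DESeq2 size factors and 0.098 at a minimum of 30. In liver, 0.109 became 0.214 with DESeq2 size factors, 0.005 with library totals and 0.127 at a minimum of 30.

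The sign turned for Bms1 in the genotype fit without the liver pair (range with a pair left out -0.566 to 0.03), for Nop14 without the cerebellum pair (-0.393 to 0.155), and in liver against brain with library totals for Ltv1 (-0.151) and Pdcd2 (-0.047). Apart from the scaling shift, the cause was not tested. No paired analysis by replicate number was possible because each genotype and tissue has 1 pooled library. Liver libraries gave the fewest member tags, which limits their ratios most.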
